A study of Mus musculus with 2 samples.

Results

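The genes described here encode tubulins, proteins of the gamma-tubulin complex, the chains of cytoplasmic dynein and subunits of dynactin. They were taken from the deposited expression table as all symbols that begin with Tuba, Tubb, Tubg, Dynlt, Dynll, Dynlrb, Dync1 or Dctn, with pseudogene symbols ending in -ps left out. The rule found 43 of the 34714 rows, and 40 genes remained once the 4 near-identical Dynlt1 copies were added together. Of these, 29 reached 1 FPKM (fragments per kilobase of transcript, scaled to library size) in at least 1 library. The set was chosen by the measured ratio of 1 gene in this same comparison, the copy Dynlt1f, which lay above 2-fold, while the next copy below that mark was Dynlt1a. All ratios are therefore given as a description.

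Bone marrow-derived macrophages of C57BL/6 mice were grown from flushed marrow cells in medium that held M-CSF, the macrophage growth factor, at 20 ng/mL, in both groups. They were then exposed for 24 h to FGK45, a monoclonal antibody that activates the receptor CD40, or to IgG as the control (Ctrl). Each group held 1 RNA-seq library, so differences could be neither checked between replicates nor tested. The number of mice behind each library is, like any pooling, not given in the sources used here.

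Microtubules are hollow polymers of alpha- and beta-tubulin dimers, and gamma-tubulin with its ring complex starts their growth at the centrosome. Cytoplasmic dynein is a motor that walks toward the minus end of the microtubule, carrying phagosomes, lysosomes and endosomes toward the cell centre, and dynactin is the complex that activates it and joins it to cargo. In macrophages, this transport brings phagosomes and lysosomes together.

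All 10 macrophage markers that were looked up, among them Adgre1, Cd68, Csf1r and Lyz2, reached 1 FPKM in the table. Cd14 had 333 against 244 FPKM, Spi1 251 against 195, Csf1r 333 in both libraries and Fcgr1 27.1 against 30.3. The summed level of the 10 was 15474 FPKM after anti-CD40 and 13121 after IgG, most of it Lyz2 at 13423 and 11326. No marker of B cells, dendritic cells, fibroblasts and endothelium, or neurons and ciliated cells reached 1 FPKM. T and NK cell markers summed to 4.55 and 3.72 FPKM, nearly all of it Cd4 at 3.94 and 3.04, and neutrophil markers to 1.90 and 1.25, mostly S100a8 at 1.82 and 1.11. Erythroid and megakaryocyte markers summed to 27.5 and 24.7 FPKM, with Pf4 at 16.4 and 10.5, Itga2b at 7.77 and 8.29, Gp1bb at 1.28 and 2.14 and Hba-a1 at 1.18 and 2.91. The part of these cells in the results below was not tested. In bulk RNA, fewer cells of a type and less RNA per cell cannot be told apart. The median log2 ratio of (FPKM + 1), anti-CD40 over IgG, was 0.12 over the 9591 genes at 1 FPKM or more. The median ratio of the FPKM values was 1.11, over the 9318 of these above 0 in both libraries and with an annotated length. Members are therefore read against this shift, and "above the median" below means above that of all genes.

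The tubulin, gamma-tubulin complex, dynein and dynactin genes spread to both sides of the median of all genes. Their own median log2 ratio was 0.12, and 14 of 29 members were above the median of all genes, a position that 50.0% of all genes hold. None of the 29 was 2-fold higher or 2-fold lower on the log2(FPKM + 1) scale, against 0.250% and 0.313% of all genes. At 1.5-fold none was higher and none was lower either, against 2.68% and 2.15%. Over all genes these shares move with the scaling: 24 genes were 2-fold higher and 30 lower, but 13 and 54 after centring on the median. The member furthest up was Dctn6, at 0.52 on the log2 scale, and the member furthest down was Dctn1, at -0.29. Both encode dynactin subunits.

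**Figure D1:**
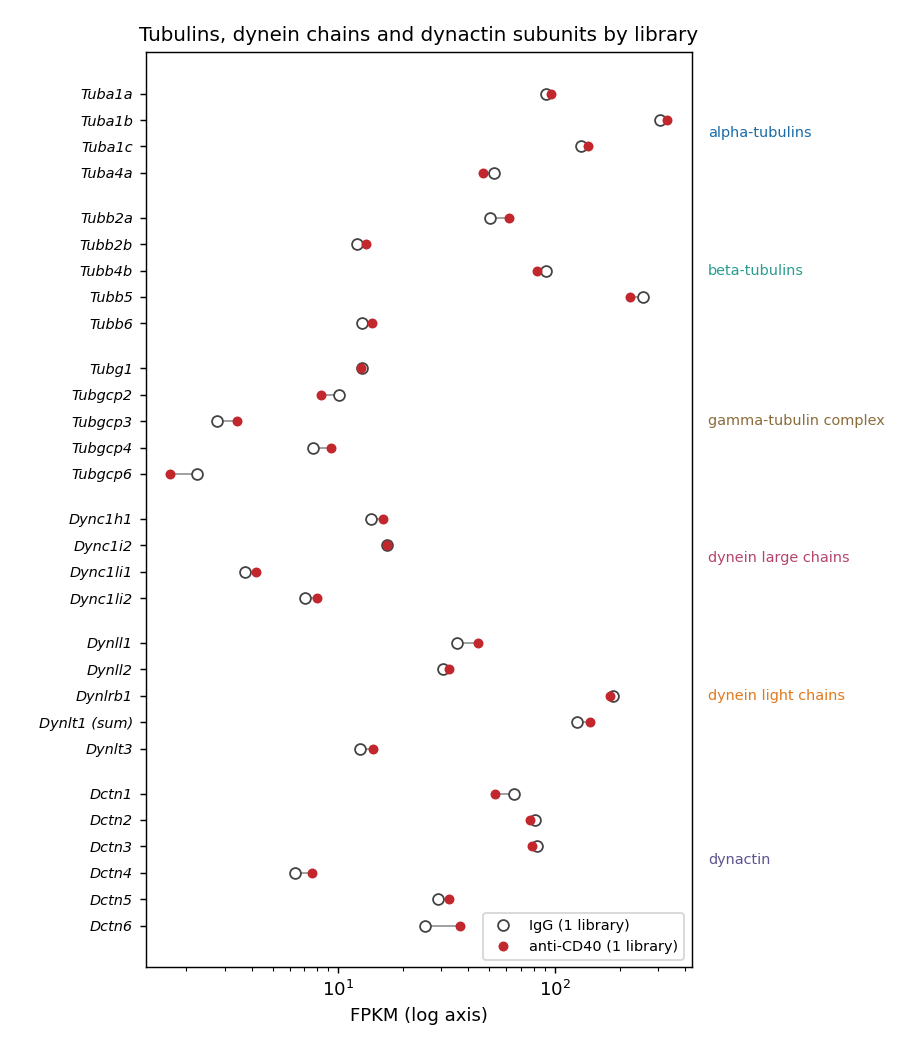
FPKM on a log axis for the 29 members that reached 1 FPKM, by class, with 1 open point for the IgG library and 1 filled point for the anti-CD40 library. The points of each gene lie close together, and the levels span from Tubgcp6 at 1.69 FPKM to Tuba1b at 329.5 FPKM after anti-CD40.

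The depth of the libraries was read from the steps in the low values, and about 6.16 gigabases of aligned sequence followed for anti-CD40 and 5.58 for IgG. The 29 members then rested on about 179.9 fragments (Dync1li1 after IgG) to 11794 fragments (Tuba1b after anti-CD40). The interval given with a ratio is an exact 95% interval for the split of such fragments between the libraries. It covers counting error only and cannot show how cultures vary. By this measure, the interval lay wholly above the median ratio of all genes for 3 members, against 17.4% of all genes. It lay wholly below for 12 members, against 24.0%, and held the median ratio for the other 14. For these intervals, shares are of the 9318 genes over which the median ratio was taken. The 3 above were Tubb2a, Dynll1 and Dctn6. Intervals narrow as fragments rise, and members were not matched for depth to all genes, so these shares are not directly comparable. With the longest transcript, 4 members lay above (21.9% of all genes) and 12 below (27.4%). The addition was the Dynlt1 sum, which holds Dynlt1f, the copy by which the set was chosen. There the longest length of any copy was given to all copies, which overstates the fragments, so the addition is not read as a result.

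Alpha-tubulin, the subunit that binds a GTP it does not hydrolyse, was expressed from 4 of the 8 genes found. Tuba1b had 329.5 FPKM after anti-CD40 and 307 after IgG. Tuba1c had 143 and 132 FPKM, and Tuba1a had 96.7 and 91.8. These 3 nearby genes on chromosome 15 were all slightly higher in FPKM after anti-CD40, yet none exceeded the general shift. Their ratios were 1.07 for Tuba1b, 1.09 for Tuba1c and 1.05 for Tuba1a. Tuba4a, on chromosome 1, went the other way with 46.9 FPKM against 52.8, a ratio of 0.89 with an interval from 0.807 to 0.981. Its exons overlap those of Stk16, a kinase gene on the opposite strand, which had 13.8 FPKM after anti-CD40 and 10.6 after IgG. None of the 4 alpha-tubulins was above the median of all genes. The signs of Tuba1a, Tuba1b and Tuba1c turn from above to below 0 when the ratios are centred on that median.

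The alpha-tubulin pool had nearly the same make-up in both libraries. Tuba1b supplied 53.4% of the summed alpha-tubulin FPKM after anti-CD40 and 52.6% after IgG, Tuba1c 23.3% and 22.6%, and Tuba1a 15.7% in both. Tuba4a supplied 7.61% and 9.03%. Tuba1a and Tuba1b encode nearly the same protein, and their coding sequences of 1353 bases are 98.3% identical. Of all windows of 150 bases, the length of a read implied by the steps, 54.7% of the Tuba1a transcript also occur in a transcript of another gene. The share was 57.9% for Tuba1b and 46.7% for Tuba1c, and it was 0 for Tuba4a. Part of these windows recur in predicted genes as well. Among these is Gm49450, which overlaps exons of Tuba1a and Tuba1b on the same strand. The shares may thus include the same genomic bases annotated under another name. Since the 3 close genes also share windows with each other, the split among them is uncertain. Their sum stood at 569.6 FPKM after anti-CD40 and 531 after IgG, a ratio of 1.07.

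Beta-tubulin, the subunit whose GTP is hydrolysed as the microtubule grows, was expressed from 5 of 8 genes. Tubb5, the main isotype of dividing and blood cells (chromosome 17, 35833920 to 35838301, GRCm38), had 222 FPKM after anti-CD40 and 255 after IgG. Its ratio was 0.873 with an interval from 0.846 to 0.901. Tubb4b had 83.2 against 91.7 FPKM, a ratio of 0.907 with an interval from 0.860 to 0.957. Both abundant isotypes were thus lower after anti-CD40, and they remained below 0 under each scaling tried. Tubb2a (chromosome 13, 34074278 to 34078008) was higher, with 61.7 FPKM against 50.5, a ratio of 1.22 and an interval from 1.14 to 1.31. Tubb2b had 13.5 against 12.3 FPKM, and Tubb6 had 14.4 against 13.0, each close to the median ratio of all genes.

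The beta-tubulin pool held less Tubb5 and more Tubb2a after anti-CD40. Tubb5 supplied 60.2% of the summed beta-tubulin FPKM after IgG and 56.1% after anti-CD40, while Tubb2a supplied 12.0% and 15.6%. Tubb4b held 21.7% and 21.01%. Summed over genes, beta-tubulin stood at 396 FPKM after anti-CD40 and 423 after IgG, a ratio of 0.937, whereas alpha-tubulin stood at 617 and 584 FPKM, a ratio of 1.06. The alpha sum was 1.56 times the beta sum after anti-CD40 and 1.38 times after IgG. With 1 library each, it cannot be said whether this difference exceeds that between cultures.

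The last 60 coding bases of the main beta-tubulin genes, which encode the acidic tail, are shown to let the genes be compared. They run 5′ to 3′ up to the last codon before the stop codon, from GENCODE transcripts (release M21, build GRCm38), with capitals where Tubb2a and Tubb2b differ:
Tubb5: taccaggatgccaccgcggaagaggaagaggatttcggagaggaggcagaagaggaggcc
Tubb4b: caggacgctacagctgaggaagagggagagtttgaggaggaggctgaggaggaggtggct
Tubb2a: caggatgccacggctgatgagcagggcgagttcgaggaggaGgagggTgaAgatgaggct
Tubb2b: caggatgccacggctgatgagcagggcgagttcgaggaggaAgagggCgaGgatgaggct
Tubb2a and Tubb2b differ at 3 of these bases, each the last of its codon, and encode the same residues in this stretch. They are 96.5% identical over 1335 coding bases, and 27.9% of the windows of Tubb2a and 20.1% of those of Tubb2b occur in another gene's transcript as well. Tubb5 shared no window, and Tubb4b shared 16.8% of its windows with a pseudogene. The sum of Tubb2a and Tubb2b was 75.2 FPKM after anti-CD40 and 62.8 after IgG, a ratio of 1.20, so the pair was also higher as a sum.

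The other tubulin genes were near or at the floor. Tubb4a, a neuronal isotype, had 0.562 and 0.436 FPKM. Tubb1, the isotype of platelets and megakaryocytes, had 0.209 and 0.189 FPKM, and Tubb3, a marker of neurons, had 0.115 and 0.036. Tuba3b had 0.034 FPKM after IgG and was listed at 0 after anti-CD40. Tuba3a, Tuba8 and Tubal3 were listed at 0 in both libraries, and such a 0 may stand for an estimate that failed.

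Gamma-tubulin came from Tubg1, with 12.8 FPKM after anti-CD40 and 12.9 after IgG. Its near copy Tubg2, 93.3% identical over the coding bases, had 0.282 FPKM after anti-CD40 and was listed at 0 after IgG. The ring complex proteins that hold gamma-tubulin lay on both sides of the median of all genes. Tubgcp3 had 3.43 against 2.76 FPKM and Tubgcp4 had 9.27 against 7.66, with ratios of 1.24 and 1.21. Both intervals hold the median ratio of all genes. Tubgcp2 had 8.39 against 10.1 FPKM and Tubgcp6 had 1.69 against 2.23, with ratios of 0.827 and 0.758. The interval on Tubgcp6 ran from 0.631 to 0.907. Tubgcp5 stayed under 1 FPKM, at 0.933 and 0.824. Exons of Tubgcp2 overlap those of Zfp511, those of Tubgcp4 overlap Zscan29 and Trp53bp1, and those of Tubgcp6 overlap Selenoo, all on the opposite strand. The strand setting is one of the points not given in the sources used here, so reads in these overlaps cannot be told apart. Zfp511 had 13.9 against 13.3 FPKM, Selenoo 13.4 against 13.0, Zscan29 5.10 against 4.55 and Trp53bp1 2.27 against 2.48.

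Of the large chains of cytoplasmic dynein, 3 of the 4 expressed had ratios from 1.12 to 1.14. Dync1h1, the heavy chain that holds the motor domain (chromosome 12, 110601395 to 110666944), had 16.2 FPKM after anti-CD40 and 14.3 after IgG. That is a ratio of 1.14 with an interval from 1.07 to 1.21, which holds the median ratio of all genes. The light intermediate chains, which bind cargo adaptors, had 7.98 against 7.07 FPKM for Dync1li2 and 4.17 against 3.72 for Dync1li1, with ratios of 1.13 and 1.12. Dync1i2, the intermediate chain that binds dynactin, had 16.8 FPKM in both libraries, with an interval from 0.908 to 1.102, just below the median ratio of all genes. Dync1i1, the intermediate chain of neurons, was listed at 0 in both libraries. Their log2 ratios ran from 0.00 to 0.17.

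**Figure D2:**
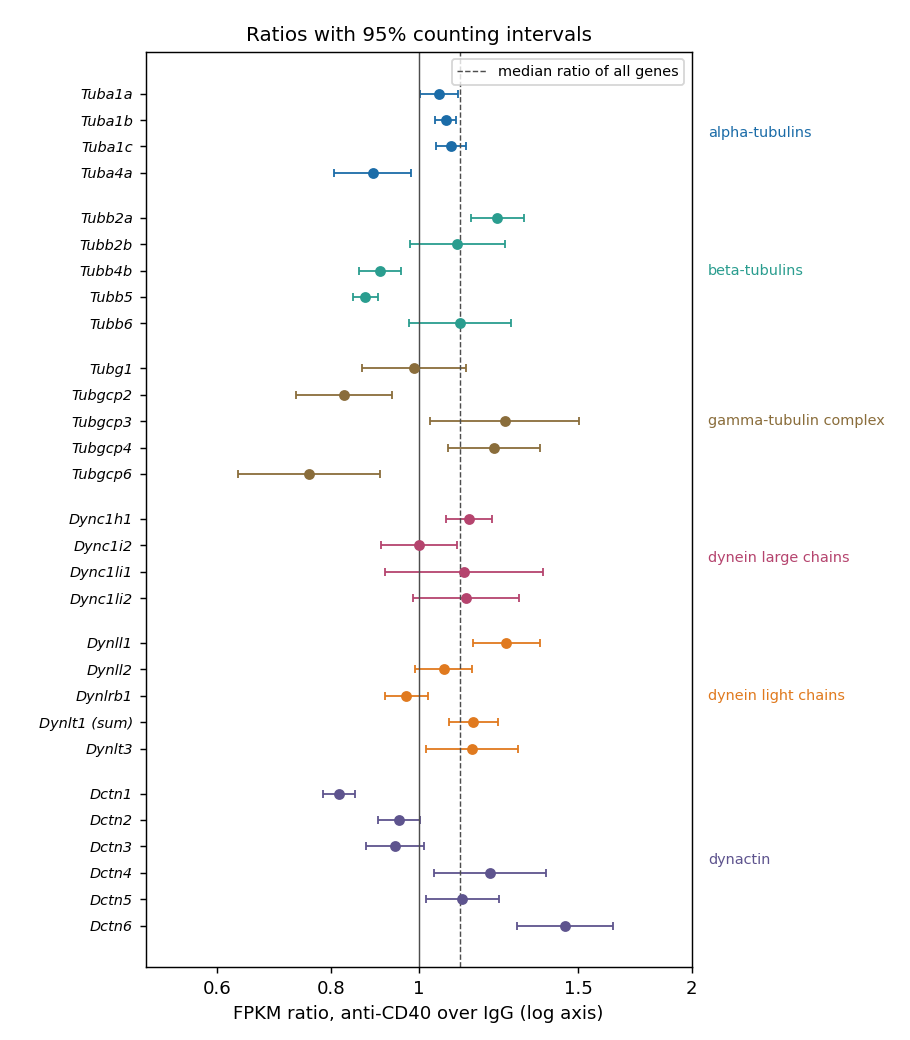
FPKM ratio of anti-CD40 over IgG on a log axis for the 29 members, by class, with bars for 95% counting intervals. The solid line is a ratio of 1 and the dashed line the median ratio of all genes, 1.11. Dctn6 at 1.45 lies furthest to the right and Tubgcp6 at 0.758 furthest to the left.

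The dynein light chains fall into 3 families that dock on the intermediate chains. The roadblock chain Dynlrb1 was the most abundant single gene among them, with 180.4 FPKM after anti-CD40 and 186 after IgG, a ratio of 0.969. Its relative Dynlrb2 was listed at 0 in both libraries. Of the LC8 chains, which also act as dimerising partners of many proteins outside the motor, Dynll1 had 44.4 against 35.5 FPKM. That is a ratio of 1.25 with an interval from 1.15 to 1.36, which lay above the median ratio of all genes. Dynll2 had 32.4 against 30.4 FPKM, a ratio of 1.07. Of the Tctex chains, Dynlt3, encoded on chromosome X, had 14.6 against 12.7 FPKM, a ratio of 1.15.

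The other Tctex chain, Dynlt1, is encoded by several near-identical copies on chromosome 17. In the RefSeq annotation of GRCm38 they lie at 6306344 to 6317520 (Dynlt1a), 6429530 to 6440500 (Dynlt1b), 6601779 to 6607891 (Dynlt1c) and 6646606 to 6655965 (Dynlt1f). The first 60 coding bases of each copy are shown because they hold the only coding difference among the 4, in capitals:
Dynlt1a: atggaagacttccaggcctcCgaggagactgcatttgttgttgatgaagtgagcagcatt
Dynlt1b: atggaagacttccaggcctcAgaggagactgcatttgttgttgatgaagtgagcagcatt
Dynlt1c: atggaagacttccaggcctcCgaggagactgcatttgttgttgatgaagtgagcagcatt
Dynlt1f: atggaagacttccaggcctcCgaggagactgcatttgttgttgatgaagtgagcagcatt
Counted from 1 at the first base of the start codon, the change from Dynlt1b to each other copy is A21C. Over the 339 coding bases, Dynlt1a, Dynlt1c and Dynlt1f were identical, and Dynlt1b differed from them at 1 base. A read within the coding part can therefore tell Dynlt1b from the rest at that base and the other copies not at all.

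Dynlt1f had 25.8 FPKM after anti-CD40 and 9.42 after IgG, a ratio of 2.73 with a counting interval from 2.25 to 3.35. Dynlt1a had 6.80 against 3.99 FPKM, a ratio of 1.70 with an interval from 1.39 to 2.098. The ratio of Dynlt1f is the one by which the set was chosen, so its interval is no support for a difference. Both intervals take the fragments assigned to a copy as counted and leave out how shared reads were divided. The 2 most abundant copies were level between the libraries. Dynlt1b had 58.3 against 58.4 FPKM and Dynlt1c had 55.4 against 55.5, with ratios of 0.998 and 0.999. Dynlt1f thus made up 17.6% of the summed FPKM after anti-CD40 and 7.41% after IgG, while the ratio of Dynlt1b to Dynlt1c was 1.05 in both libraries.

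Summed over the 4 copies, Dynlt1 had 146 FPKM after anti-CD40 and 127 after IgG. The ratio was 1.15 with an interval from 1.08 to 1.22, which holds the median ratio of all genes. With 3545 bases, the longest transcript of any copy, applied to all 4, the interval ran from 1.12 to 1.18, wholly above that median. The longest transcript of Dynlt1b has 771 bases, so that setting overstates its fragments and makes the interval too narrow. No reading is drawn from it. The main setting gives 771 bases to all 4 copies, although the median length for Dynlt1c is 2589 bases. On these lengths it understates the fragments, and the interval from 1.08 to 1.22 is too wide. Dynlt1f accounted for 16.3 of the 19.0 FPKM by which the sums differed, and without it the sums were 120.5 and 118 FPKM, a ratio of 1.02. Windows of 150 bases were taken from a single annotated transcript per copy, of 771 bases for Dynlt1f, whose longest transcript has 3545 bases. Of these windows, 75.9% of those of Dynlt1f, 80.9% of Dynlt1c, 80.5% of Dynlt1b and 35.6% of Dynlt1a also occur in another gene's transcript. For Dynlt1f, 150 windows of the transcript used were its own. How the authors' quantification divided shared reads among the copies was not tested. Dynlt1a overlaps exons of Tmem181a on the opposite strand, a gene with 5.91 FPKM after anti-CD40 and 4.82 after IgG. Sytl3, the gene beside Dynlt1f, was listed at 0 in both libraries.

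**Figure D3:**
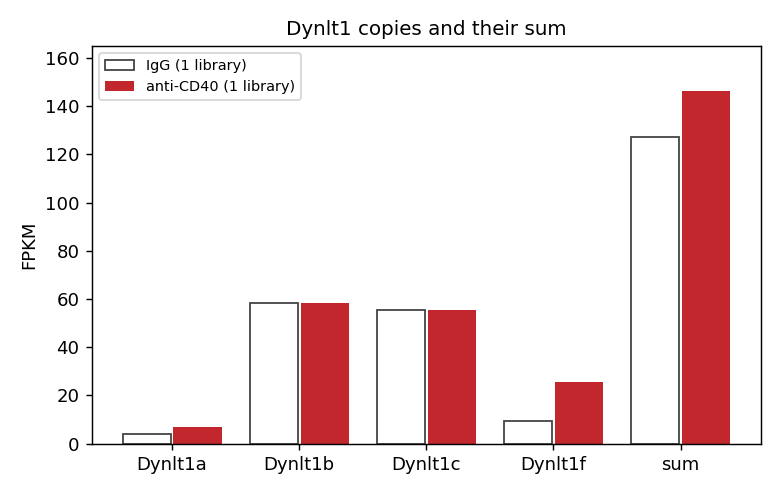
FPKM of the 4 Dynlt1 copies and of their sum, with open bars for the IgG library and filled bars for the anti-CD40 library, 1 library each. Dynlt1b and Dynlt1c stand level at about 58 and 55 FPKM, Dynlt1f stands at 9.42 and 25.8, and the sum at 127 and 146.

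The dynactin subunits showed the widest spread among the classes, from -0.29 to 0.52 in log2 ratio, with 3 of 6 above the median of all genes. Dctn1, which encodes p150Glued, the arm that binds both dynein and the microtubule (chromosome 6, 83165909 to 83200118), had 52.9 FPKM after anti-CD40 and 64.7 after IgG. Its ratio was 0.818 with an interval from 0.785 to 0.851. Dctn2, the dynamitin subunit of the shoulder, had 77.1 against 81.0 FPKM, and Dctn3, the small shoulder subunit p24, had 78.5 against 83.3. Their ratios were 0.952 and 0.943, with intervals that reach 1 but lie below the median ratio of all genes. So the 3 subunits that form the shoulder and arm were all below the median of all genes.

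The subunits p62, p25 and p27 belong to the pointed end, which caps the short actin-like filament of dynactin and takes part in cargo binding, and their log2 ratios were above the median of all genes. Dctn6, the p27 subunit (chromosome 8, 34090420 to 34108712), had 36.6 FPKM against 25.2, a ratio of 1.45 with an interval from 1.28 to 1.64. Of all genes at 1 FPKM or more, 95.7% had a lower log2 ratio. Dctn5, the p25 subunit, had 32.5 against 29.1 FPKM, and Dctn4, the p62 subunit, had 7.58 against 6.32, with ratios of 1.12 and 1.20 and intervals that hold the median ratio of all genes. The other protein of the pointed end, encoded by Actr10, had 9.08 FPKM in both libraries and so lay below that median. The sign of each dynactin subunit was the same under every scaling tried. Summed over the class, dynactin had 285 FPKM after anti-CD40 and 289.6 after IgG, because the abundant subunits were the lower ones.

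Base composition moved with the ratios. When all genes were put in 4 bins of equal size by transcript GC content, the median log2 ratio was 0.02 in the bin with the highest GC content and 0.16 in the bin with the lowest. Dctn1, with 59.5% GC, lies in the highest bin, and Dctn2 has 55.4% and Dctn3 55.0%. The pointed-end genes have less, with 45.6% for Dctn4, 47.7% for Dctn5 and 50.2% for Dctn6. The part of base composition in the split among dynactin subunits was not tested. When trends on GC content and length were removed, the offset of Dctn1 from the median of all genes went from -0.41 to -0.30 on the log2 scale. That of Dctn6 went from 0.40 to 0.37 and that of Tubb5 from -0.32 to -0.33. The offset of Dctn2 went from -0.19 to -0.12, that of Dctn3 from -0.21 to -0.15 and that of Dctn4 from 0.11 to 0.06. Of the 29 members, 2 crossed to above the median of all genes (Tuba1b, to 0.04, and Tuba1c, to 0.07). Another 4 crossed to below it, namely Dctn5 (to -0.01), Tubb2b (to -0.02), Dync1li1 (to -0.03) and Dync1li2 (to -0.02), which left 12 above.

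The dynactin subunits without a Dctn symbol that were looked up are actin-related proteins, that of Actr10 at the pointed end among them, and the capping protein. These 6 genes had a median of 0.14, and 3 were above that of all genes. The capping protein genes Capza2 and Capzb had 41.0 against 32.3 FPKM and 201 in both libraries. The filament gene Actr1b had 26.0 against 21.7 FPKM.

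Dynein regulators and cargo adaptors reached 1 FPKM in 12 of 18 genes found. Their median was 0.14, and 7 were above that of all genes. Ndel1, which works with the dynein regulator LIS1, had 10.2 FPKM after anti-CD40 and 7.17 after IgG, a ratio of 1.42 with an interval from 1.20 to 1.69. The mitochondrial adaptor gene Trak2 had 2.62 against 1.65 FPKM. Rilp, which links the lysosomal GTPase Rab7 to dynein, had 6.89 against 7.72 FPKM, and the JIP3 adaptor gene Mapk8ip3 had 10.7 against 11.4. Both of these intervals hold 1 but lie below the median ratio of all genes.

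Dynein-2 drives transport inside cilia and axonemal dyneins make cilia beat, and 3 of 21 such genes reached 1 FPKM. They were Dnal4 at 10.2 against 7.09 FPKM, Wdr34 at 6.14 against 5.91 and Dync2li1 at 1.82 against 1.43. Kinesins, the motors that mostly walk to the plus end, reached 1 FPKM in 25 of 39 genes. Their median was 0.15, with 13 above the median of all genes and 1 higher by 1.5-fold, against 2.68% of all genes. That gene was Kifc1, a minus-end kinesin of the spindle, with 5.09 against 2.93 FPKM, a ratio of 1.74 with an interval from 1.32 to 2.30. Kif2a, a kinesin that takes microtubules apart, had 3.78 against 2.41 FPKM. Kifap3 had 3.88 against 4.10 FPKM and Kifc2 had 2.97 against 3.10. The cell cycle list, with a median of 0.14, had 13 of 23 genes above that of all genes. The highest ratios in it were those of Ube2c, with 17.6 and 12.1 FPKM, and of Birc5, with 19.4 and 13.9. The lowest were those of Mcm6, with 26.8 and 33.6 FPKM, and of Bub1b, with 2.42 and 2.65.

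Newly made tubulin is folded by prefoldin, the CCT chaperonin and a set of cofactors. Genes for tubulin folding had a median of 0.16, and 12 of 22 were above that of all genes. The 2 genes past 1.5-fold were both higher, against 2.68% of all genes higher and 2.15% lower. Tbca, the cofactor that receives newly folded beta-tubulin, had 36.5 FPKM after anti-CD40 and 19.0 after IgG, a ratio of 1.92 with an interval from 1.61 to 2.29. The prefoldin gene Pfdn4 had 5.96 against 3.41 FPKM. Arl2, a GTPase that acts with the tubulin cofactors, had 131 against 195 FPKM, a ratio of 0.672 with an interval from 0.643 to 0.703, and Pfdn6 had 73.2 against 86.7. The log2 ratios of this list ran from -0.57 to 0.91.

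Microtubule-associated and plus-end proteins had a median of 0.16, with 9 of 15 genes above the median of all genes. Map7d1 had 69.9 against 50.7 FPKM, and Mapre1, the gene of the plus-end protein EB1, had 9.26 against 7.45. Clip2 had 9.29 against 12.9 FPKM, a ratio of 0.723 with an interval from 0.663 to 0.788, and Camsap2, whose product binds minus ends, had 2.04 against 2.32. Tubulin-modifying and severing enzymes had a median of 0.05, with 8 of 17 above the median of all genes. Tpgs1, a subunit of the enzyme that adds glutamates to tubulin tails, had 77.03 against 107 FPKM, and its partner Tpgs2 had 8.36 against 6.30. Ttll3 had 2.71 against 4.18 FPKM. Vash2, which takes the last tyrosine off alpha-tubulin, had 1.70 against 0.811 FPKM, a ratio of 2.09, which the added 1 FPKM brings below 1.5-fold on the log2 scale used for counts.

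The anchors of the gamma-tubulin complex had a median of 0.06, with 1 of 5 above the median of all genes. Mzt1 had 3.54 against 3.15 FPKM and Pcnt 2.07 against 1.92, while Cdk5rap2 had 1.23 against 1.67 and Nedd1 0.927 against 1.004. The interval on each of these 4 ratios holds 1. Delta-tubulin, a centriole protein encoded by Tubd1, had 1.63 against 0.872 FPKM, a ratio of 1.86 with an interval from 1.21 to 2.94.

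**Figure D4:**
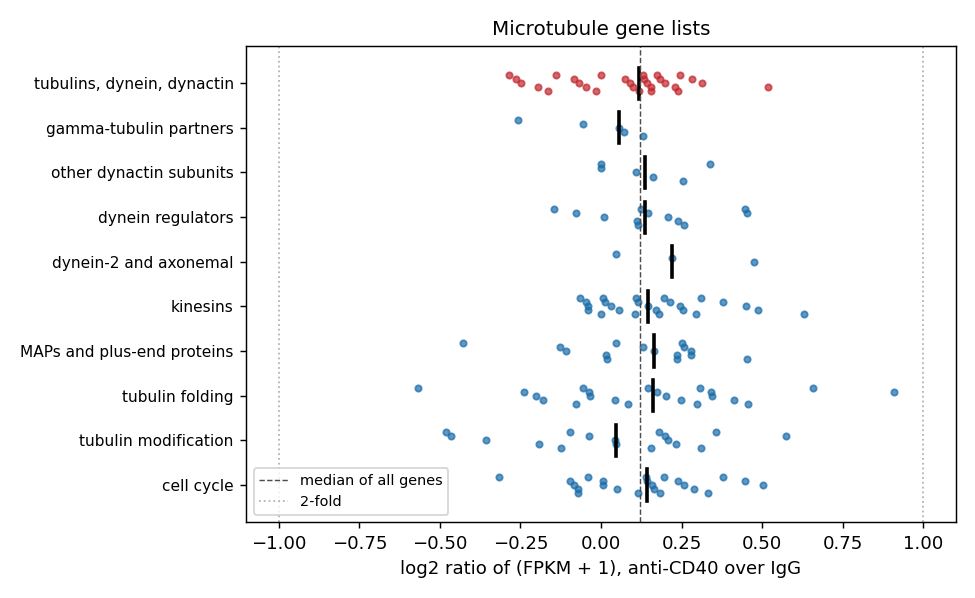
Log2 ratio of (FPKM + 1), anti-CD40 over IgG, for each gene at 1 FPKM or more, by list, with a bar at the list's median. The dashed line is the median of all genes at 0.12 and the dotted lines mark 2-fold. No gene plotted lies past 2-fold, and the medians drawn lie between 0.05 and 0.22.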

How the data were processed

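RNA from 2 libraries, 1 of macrophages exposed to anti-CD40 and 1 to IgG, was, per the labels' protocols, extracted with TRIzol and 1.3 ug of it taken into a TruSeq preparation. HISAT2 2.1.0, StringTie (no version) and build mm10 appear per the submitters' processing notes. Annotation, strand setting and filters were not given in the sources used here. Deposited by the authors was 1 value per gene and library, read here as FPKM: the header names no unit, and the columns sum to 529104 (anti-CD40) and 547362 (IgG). Columns were assigned by name, and 0 were left unused.

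The measure was the log2 ratio of (FPKM + 1), counted at 1 FPKM or more in either library. Ratios in the text are of the FPKM values themselves. Of single-exon genes with low values, 75% of 64 (anti-CD40) and 88.2% of 34 (IgG) gave whole steps within 0.05 steps, at the step chosen to make that share highest, with the most frequent multiples at 300 and 600. With a step taken as 0.5 of an aligned base and a fragment as 300 aligned bases, fragments were the FPKM times transcript length (median protein-coding transcript, GENCODE release M21) times 20.5 or 18.6 per FPKM and kilobase. The Dynlt1 sum used 771 bases, and 3545 bases in the setting with longest transcripts. Fragment numbers rest on that reading of the steps and on assumed lengths. Coordinates are those of RefSeq (GRCm38.p6), in which all 34714 symbols were found. Calculations used numpy 2.4.6, pandas 2.3.3, scipy 1.17.1 and statsmodels 0.14.6, and were tested on simulated data.

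Members and lists were chosen with earlier results of these data known. Every member is accounted for. Of each other list, up to 2 genes with the highest and 2 with the lowest log2 ratio are named. Of genes overlapping a member, those at 1 FPKM or more and Gm49450 are named. The other overlapping genes, under 1 FPKM or without a value, are not. Sytl3 and the listed cell type markers were named beyond that rule. Alternatives were pseudocounts of 0.1 and 5 FPKM, no filter, a filter at 5 FPKM, rescaling to the mean of the sums or upper quartiles, centring on the median, single Dynlt1 copies and longest transcripts. Removing trends on GC content and length (lowess span 0.3) was chosen after seeing the data.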

Additional observations from a re-analysis of the deposited data

How the results depend on the processing

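No paired analysis was possible because each group held 1 library, and for the same reason no library could be left out. With each Dynlt1 copy on its own, 2 members were 1.5-fold higher (Dynlt1a and Dynlt1f) and 1 was 2-fold higher (Dynlt1f), by construction of that setting. The counts past 1.5-fold and 2-fold were 0 in both directions under every other alternative run. Without a filter, 22 of 35 members were above the median of all genes, which fell to 0.03, and the median of the gamma-tubulin class moved from -0.14 to 0.055 relative to it. Under the other alternatives, 12 to 18 members were above the median, and no class median moved by more than 0.1 on the log2 scale. Across the scalings, 7 members changed sign (Tuba1a, Tuba1b, Tuba1c, Tubg1, Dync1i2, Dynll2 and Dynlrb1), 14 were above 0 and 8 below 0 throughout. Over all genes, 24 were 2-fold higher and 30 lower, and 13 and 54 after centring on the median, 19 and 42 after upper-quartile scaling, 30 and 24 after rescaling to the mean of the sums and 27 and 25 without the GC and length trend. At 1.5-fold, 257 were higher and 206 lower, and in the same order 118 and 406, 166 and 333, 333 and 158, and 292 and 161. With the longest transcript, the counting interval of Tuba4a and of the Dynlt1 sum narrowed by over 1.5 times. That of the Dynlt1 sum then lay above the median ratio, so 4 members lay above it, 12 below and 13 held it. For that sum, 3545 bases were applied to all copies, although the longest transcript of Dynlt1b has 771. Its fragments were thus overstated, and the changed position is not read as a result. At the shallowest member, Dync1li1, counting alone allows ratios from 0.917 to 1.37, so smaller differences could not be told from counting error there. With 1 library per group, larger differences could not be told from variation between cultures either.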
